A study of Mus musculus with 18 samples.

Results

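Binding of CREB1 to DNA with 5-hydroxymethylcytosine (5hmC) was compared with its binding to DNA with 5-methylcytosine (5mC). The 4 arrays were those labelled CREB1 with 5hmC (2 arrays) or with 5mC (2 arrays), out of 18 arrays in the series. These are protein binding microarrays: a protein with a tag is laid over spots of duplex DNA, and fluorescence at each spot shows how much of it was held there. The construct was the DNA-binding domain of mouse CREB1 with short native flanks and a C-terminal glutathione S-transferase tag, produced in a cell-free system. The rest of CREB1 was not in the construct, and the probes were naked DNA. The probe strand made by primer extension carried 5hmC or 5mC at every C, and the printed strand kept ordinary cytosine, so that both kinds of DNA were hemi-modified. The same readings for CREB1 on unmodified cytosine (C) DNA and for ATF1, a close relative of CREB1, are cited only beside these results. Nothing in the sources says whether both arrays of a group used one batch of protein or separate ones. The p-values therefore measure only array-to-array spread, which may be technical and was pooled over all 18 arrays.

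CREB1 is a basic leucine zipper (bZIP) transcription factor that acts as a dimer, in which each monomer reads a half-site in the major groove. Its usual target is the cAMP response element (CRE), a palindrome with a CpG at its centre (tgaCgtCa in the notation used here). GCAA is the half-site of another bZIP family, the C/EBP proteins, whose palindrome joins a pair of such half-sites around a CpG. In mammals 5mC is the common methylated base at CpG, and 5hmC is made from it by TET enzymes, which add a hydroxyl group to the methyl group that projects into the major groove.

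Sequences are written 5′ to 3′ as they read on the modified strand, in lower case, with capitals marking each cytosine that carried 5hmC or 5mC. The lines that follow show the 8-mers with the 10 largest called rises and the 10 largest called falls in z-score with 5hmC relative to 5mC, because together they show the pattern described next.
rise 1: tgatgCaa
rise 2: gtgatgCa
rise 3: CCatgCaa
rise 4: gtgatgta
rise 5: gatgatgC
rise 6: atgatgat
rise 7: agtgatgt
rise 8: tgatgtaa
rise 9: tatgatgt
rise 10: gatgatgt
fall 1: CtaCgCaa
fall 2: CgaCgCaa
fall 3: gCgCaata
fall 4: CCCgCaat
fall 5: gCtaCgCa
fall 6: CgCaatag
fall 7: CgCaatCC
fall 8: CgCaatgC
fall 9: CgCgCaat
fall 10: CCaCgCaa
All 10 falls held a CpG on the modified strand, and CGCA stood in each of them, against 38.2% and 1.96% of tested 8-mers. None of the 10 rises held a CpG, and 6 of them had no cytosine on the modified strand at all. Overlapping 8-mers share probes, and the 10 rises lay on 153 distinct probes and the 10 falls on 141.

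The authors' z-score is a score of binding at an 8-mer on one array and was used without a log transform. Its median over 8-mers was near 0 on each array. Brightness was unequal, with a median probe signal of 1249 and 1298.5 units on the 5hmC arrays and 1617 and 4592 units on the 5mC arrays. Signal over local background was 1.84 and 2.78 on 5hmC arrays and 2.02 and 8.2 on 5mC arrays, and 2 and 1 probes were saturated on 5hmC arrays against 10 and 44 on 5mC arrays. The part of this difference in the results was not tested, beyond the rescaled values given below. Across 65121 8-mers the 2 arrays of a group correlated with Pearson r of 0.853 (5hmC) and 0.840 (5mC), and arrays of different groups with r between 0.603 and 0.702. The 8-mers share probes and are not independent.

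Binding differed between 5hmC and 5mC DNA at 620 8-mers, 121 higher and 499 lower with 5hmC. These were 0.952% of all 8-mers tested, 0.186% higher and 0.766% lower, by limma's moderated test with Benjamini-Hochberg adjustment over all 65121 at 0.05, and 8000 had an unadjusted p under 0.05. At all 620 the 2 groups of arrays did not overlap. Over all 8-mers, the arrays were separated without overlap at 22.7% in the higher and 23.7% in the lower direction, so that separation by itself was common. Of the 121 that rose, 68 had a mean z-score of at least 4 on 5hmC DNA, and of the 499 that fell, 294 had a mean of at least 4 on 5mC DNA. A mean z-score of 4 or more was reached by 1077 8-mers on 5hmC and 1340 on 5mC DNA, of which 599 were in both sets. Leaving out CREB1 5hmC replicate 1 gave 200 calls, and leaving out CREB1 5hmC replicate 2 gave 250. In log2 probe signal, 11 8-mers were higher (0.0169%) and 267 lower (0.41%), so that 96.0% of calls were lower there, against 80.5% in z-scores.

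**Figure D1:**
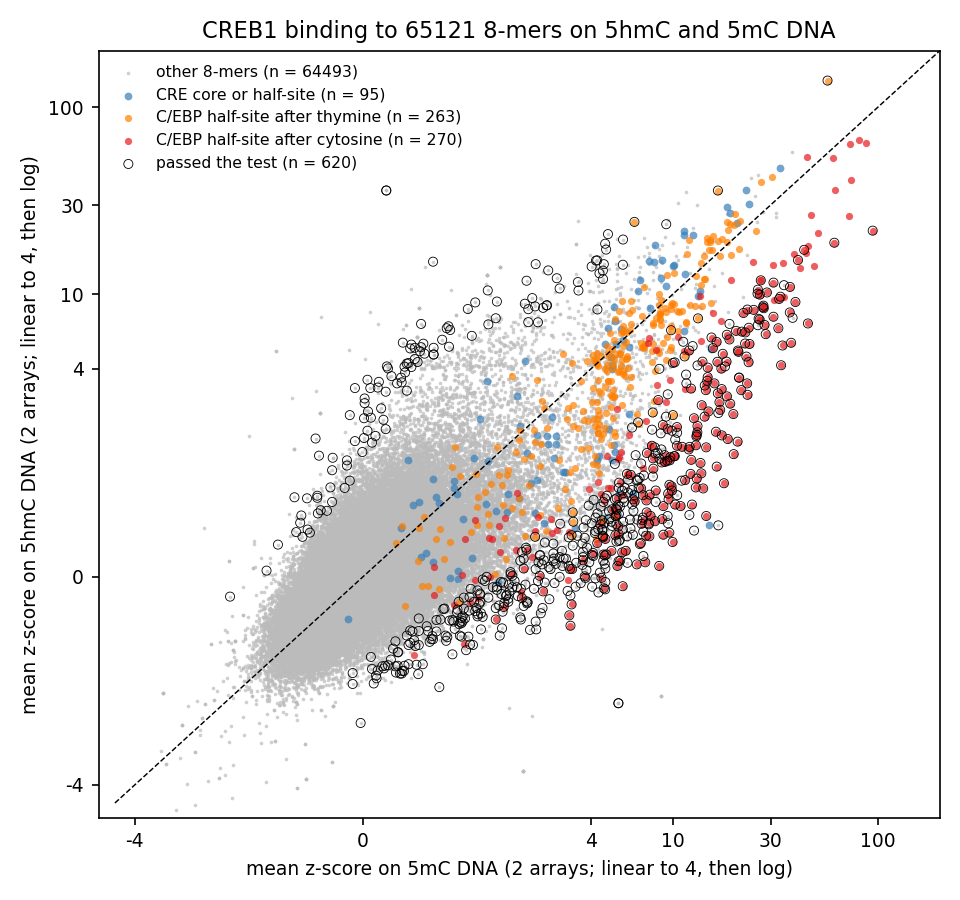
Mean CREB1 z-score of each 8-mer on 5hmC DNA (vertical axis) and 5mC DNA (horizontal axis), 2 arrays each, on axes that are linear to 4 and logarithmic beyond. Colours mark C/EBP half-sites after cytosine or thymine and CRE sites, and rings the 620 8-mers that passed the test. Ringed half-sites after cytosine lie below the dashed line of equal z-scores.

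Most 8-mers with GCAA directly after a modified cytosine fell. Of 240 8-mers with CGCAA on the modified strand, outside the C/EBP palindrome and the CRE-C/EBP chimera, 175 fell and none rose with 5hmC, against 0.766% lower and 0.186% higher of all 8-mers. Their median z-score was 2.08 and 2.38 on the 5hmC arrays and 12.5 and 8.07 on the 5mC arrays. Both 5hmC arrays lay below both 5mC arrays. All 240 differences were negative, with a median of -7.91, against -0.03 over all 8-mers. Of the 240, 225 were separated lower without overlap, against 23.7% of all 8-mers. With CGCAA on the unmodified strand instead, where its cytosines were ordinary, 3 of 240 fell and 1 rose. Those 240 had medians of 0.391 and 0.492 on 5hmC arrays and 0.615 and 0.699 on 5mC arrays. In all, 185 of the 499 falls (37.1%) held CGCAA and 278 (55.7%) held CGCA, against 0.393% and 1.96% of tested 8-mers. Of the class, 78 fell when CREB1 5hmC replicate 1 was left out, and 105 when CREB1 5hmC replicate 2 was.

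The base before GCAA went with the size of the difference. Each of the hexamers that follow was held by 48 8-mers, and values are means over these of the z-score per array. GCGCAA averaged 3.08 and 3.20 on the 5hmC arrays and 18.2 and 10.1 on the 5mC arrays, and 40 of its 48 8-mers fell. CCGCAA averaged 1.39 and 1.49 with 5hmC and 11.1 and 6.74 with 5mC, with 40 that fell. Both classes averaged below 4 on each 5hmC array. TCGCAA averaged 2.10 and 2.55 with 5hmC and 12.8 and 6.66 with 5mC, with 36 that fell. ACGCAA was the highest of the hexamers with C before GCAA on both kinds of DNA, at 11.5 and 16.4 with 5hmC and 42.2 and 20.5 with 5mC, and 23 of its 48 fell. With T in place of that C the groups overlapped for ATGCAA, which averaged 11.3 and 17.0 with 5hmC and 14.0 and 8.01 with 5mC. Of its 48 8-mers 2 rose and none fell. CTGCAA averaged 2.14 and 2.11 with 5hmC and 4.64 and 3.29 with 5mC, and 10 fell. TTGCAA had 2 that fell and GTGCAA none that passed the test. After a purine, 3 of 512 8-mers with GCAA fell (0.586%), which was no more than the 0.766% of all 8-mers. Medians there were 1.52 and 0.643 with 5hmC and 2.38 and 0.951 with 5mC, which overlap.

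The level also varied with the base that came after CGCAA on the modified strand. With T there, CGCAAT averaged 9.37 and 12.4 on the 5hmC arrays and 41.7 and 20.0 on the 5mC arrays, and 37 of 48 fell. CGCAAC averaged 4.27 and 5.95 with 5hmC and 21.8 and 13.4 with 5mC, and 42 of 48 fell. CGCAAG averaged 1.38 and 1.63 with 5hmC and 10.7 and 6.38 with 5mC, with 40 that fell. CGCAAA was lowest on 5mC DNA, at 1.59 and 1.65 with 5hmC and 8.32 and 4.03 with 5mC, with 18 that fell. In each of these 4 contexts all 48 8-mers had a negative difference, whichever base followed.

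**Figure D2:**
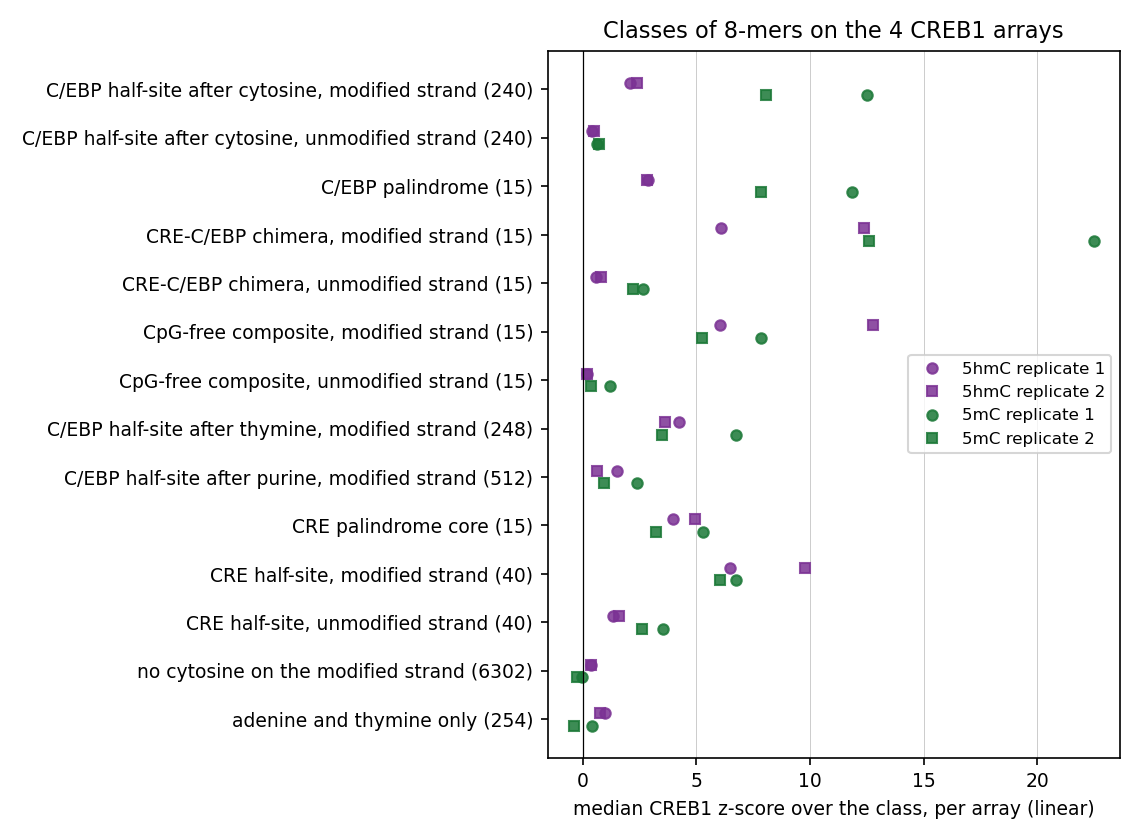
Median CREB1 z-score of each class of 8-mers on each of the 4 arrays (horizontal axis, linear), with the number of 8-mers in brackets. Circles are replicate 1 and squares replicate 2. For C/EBP half-sites after cytosine on the modified strand the 5hmC arrays were at 2.08 and 2.38, left of the 5mC arrays at 12.5 and 8.07.

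CtaCgCaa had the highest z-score of all 8-mers on both 5mC arrays and ranked 44 and 47 on the 5hmC arrays. Its z-score was 17.6 and 26.2 with 5hmC and 128 and 60.1 with 5mC, a difference of -72.4 ± 16.5 (SE, limma adjusted p = 0.0384). On C DNA it was 14.7 and 25.9. The SEs given here pool the spread of an 8-mer over all 18 arrays, including those of other proteins. They can therefore be smaller or larger than the spread of the 4 arrays compared. CtaCgCaa lost its call without CREB1 5mC replicate 1, CREB1 5hmC replicate 1 or CREB1 5hmC replicate 2. It also lost it in fits of the 6 CREB1 arrays or the 4 arrays alone, and in log2 probe signal. Division of z-scores by the 99th percentile of their array lost it as well (limma adjusted p = 0.129). The difference at CtaCgCaa kept its sign throughout. On the second 5mC array 9 of its 16 probes were saturated, so that its signal there is a lower bound. CgaCgCaa, with a second CpG, was at 14.4 and 23.4 with 5hmC and 81.9 and 40.7 with 5mC (difference -42.4 ± 10.1, adjusted p = 0.0476). Its call was lost in 9 of 14 alternatives. gCgCaata was at 4.26 and 9.73 with 5hmC and 63.5 and 27.7 with 5mC (difference -38.6 ± 6.71, adjusted p = 0.00533). The 5hmC arrays were below the 5mC arrays in each case, as the choice of the 10 falls required.

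Of the most strongly bound 8-mers, tgatgCaa and CtaCgCaa passed the test. The 5 8-mers with the highest mean z-score on 5hmC DNA were tgatgCaa, taCgCaat, aCgCaata, tgaCgCaa and gatgaCgC, and the 5 highest on 5mC DNA were CtaCgCaa, aCgCaata, taCgCaat, CaCgCaat and tgaCgCaa. taCgCaat was at 53.3 and 79.9 with 5hmC and 108 and 53.2 with 5mC, which overlap (difference -13.8 ± 16.9, adjusted p = 0.805). aCgCaata was at 54.9 and 74.2 with 5hmC and 126 and 49.98 with 5mC, which also overlap (difference -23.4 ± 18.3, adjusted p = 0.663). Both hold the CGCAAT of several of the largest falls, and their standard errors leave differences of either sign. On the second 5mC array, whose values set these overlaps, 7 of 15 probes with taCgCaat, 6 of 19 with aCgCaata, 6 of 17 with tgaCgCaa and 5 of 17 with CaCgCaat were saturated, and the part of saturation in the overlaps was not tested. CaCgCaat was at 30.4 and 51.5 with 5hmC and 99.4 and 49.2 with 5mC (difference -33.4 ± 13.7, adjusted p = 0.313). gatgaCgC, which holds the first 5 bases of the CRE, was at 45.2 and 69.3 with 5hmC and 49.5 and 26.6 with 5mC (difference 19.2 ± 13.3, adjusted p = 0.61), and was at 90.6 and 97.9 on C DNA. The base 2 places before CGCAA, in 8 8-mers each, went with the level as well. TACGCAA averaged 18.7 and 25.3 with 5hmC and 66.3 and 31.4 with 5mC, and 3 of 8 fell. AACGCAA averaged 4.64 and 5.94 with 5hmC and 17.7 and 8.89 with 5mC, and 1 of 8 fell.

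The other 7 of the 10 largest falls had z-scores from 3.42 to 22.0 on the 5hmC arrays and from 20.4 to 59.0 on the 5mC arrays. CgCaatCC had the lowest mean with 5hmC of these, at 4.95 and 3.42, against 43.8 and 23.7 with 5mC (difference -29.6 ± 3.83, limma adjusted p = 0.000356). Its standard deviation was 1.09 over the 5hmC arrays and 14.2 over the 5mC arrays, so the pooled SE understates the spread on 5mC DNA. CCaCgCaa had the highest mean with 5hmC of the 7, at 12.6 and 22.0, against 59.0 and 28.4 with 5mC (difference -26.4 ± 6.04, limma adjusted p = 0.0391). gCtaCgCa, which holds no GCAA but shares CTACGCA with the top 8-mer, was at 7.31 and 7.67 with 5hmC and 46.9 and 29.8 with 5mC (difference -30.9 ± 4.05, adjusted p = 0.000416). Counting the C/EBP palindrome and called neighbours described below, 19 named 8-mers fell, of which 13 kept the call without CREB1 5mC replicate 1, 6 without CREB1 5hmC replicate 1, 18 without CREB1 5mC replicate 2 and 10 without CREB1 5hmC replicate 2.

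**Figure D3:**
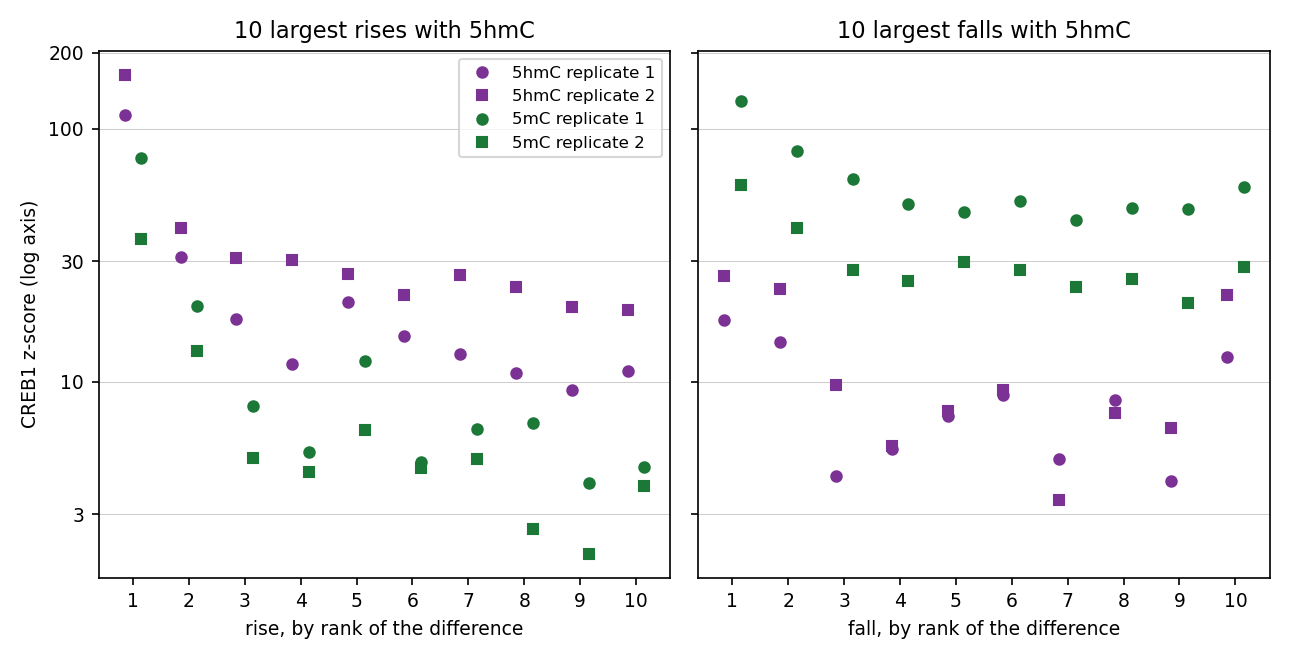
CREB1 z-scores (log axis) on each of the 4 arrays for the 10 largest rises (left) and 10 largest falls (right) with 5hmC, in order of the difference. Circles are replicate 1 and squares replicate 2. At each of the 20, both 5hmC arrays lie on the same side of both 5mC arrays.

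The 8-mers that differ from CtaCgCaa at one base show how the difference varied along the site. Of its 24 single-base neighbours 10 fell with 5hmC, against 0.766% of all 8-mers, and none rose. Separated lower without overlap were 20 of the 24, against 23.7% of all 8-mers. With A or G for the C before GCAA, z-scores were low on both kinds of DNA, in CtaagCaa (1.37 and 0.896 with 5hmC, 1.77 and 0.0729 with 5mC) and in CtaggCaa (-0.371 and 0.690 with 5hmC, 2.38 and 1.77 with 5mC). With T there, CtatgCaa was at 15.5 and 19.5 with 5hmC and 29.7 and 12.3 with 5mC, which overlap (difference -3.55 ± 3.30, adjusted p = 0.728). All 3 changes at the third base kept a call. CtgCgCaa, for example, was at 1.45 and 3.27 with 5hmC and 23.0 and 16.6 with 5mC (difference -17.5 ± 1.50, adjusted p = 6.28e-06). It had the smallest adjusted p among the neighbours. With C or T for the last A the call also held, as in CtaCgCat at 4.37 and 3.87 with 5hmC and 22.7 and 13.3 with 5mC (adjusted p = 0.0045). With the G of the CpG changed, z-scores were under 2 on each of the 4 arrays. More widely, 44 of 256 8-mers with CTACG fell and none rose, with array means of 0.943 and 1.53 with 5hmC and 4.37 and 3.82 with 5mC. CTACG was picked after its values were seen.

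Palindromic and chimeric sites also place GCAA after C. Of the 15 8-mers with 7 or more bases of the C/EBP palindrome, 9 fell and none rose, and all 15 differences were negative (median -6.32). The palindrome itself, ttgCgCaa, which carries a modified cytosine in both half-sites, was at 6.97 and 10.4 with 5hmC and 32.0 and 23.3 with 5mC. The difference was -19.0 ± 2.98 (adjusted p = 0.00221), and both 5hmC arrays were lower. It lost the call with quantile normalization, without CREB1 5hmC replicate 1, and in fits of the 6 CREB1 arrays or the 4 arrays alone. The CRE-C/EBP chimera joins TGAC to GCAA through a CpG. Of 15 chimera 8-mers with GCAA on the modified strand 4 fell, with array medians of 6.08 and 12.4 with 5hmC and 22.5 and 12.6 with 5mC. The full chimera tgaCgCaa did not pass the test, at 59.2 and 67.6 with 5hmC and 103 and 42.4 with 5mC (difference -9.49 ± 12.6, adjusted p = 0.823). Its 5hmC values lay between the 2 values with 5mC. With GCAA on the unmodified strand none of 15 chimera 8-mers passed the test, but 13 differences were negative (median -1.91). Separated lower were 11 of these 15 and 8 of the 15 with GCAA on the modified strand, against 23.7% of all 8-mers. Among those with GCAA on the unmodified strand, ttgCgtCa was at 2.32 and 1.65 with 5hmC and 5.12 and 5.11 with 5mC (adjusted p = 0.84). Its standard deviation was 0.476 with 5hmC, 0.00771 with 5mC and 9.14 on C DNA. The pooled SE of 4.47 thus exceeds the spread of the 4 arrays compared.

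The 8-mers that rose with 5hmC were poor in modified cytosine. Of the 121, 67 held no cytosine on the modified strand and 9 (7.44%) held a CpG. All 499 that fell held a cytosine and 416 (83.4%) a CpG. Among all tested 8-mers, 89.9% held a cytosine and 38.2% a CpG. The median difference was 0.549 over 6556 8-mers with no cytosine on the modified strand, 0.232 over 17495 with 1, -0.0914 over 20412 with 2, -0.317 over 13608 with 3, -0.446 over 5551 with 4 and -0.422 over 1319 with 5. Over the 171 with 6 it was 0.273, with 100 positive and none that passed the test. In the class with none, 67 rose (1.02%) and none fell. In the class with 3, 225 fell and 1 rose. The number of guanines, which are the cytosines of the unmodified strand, went with smaller shifts, between -0.0691 and 0.0785 over classes of 0 to 5. Among 8-mers of A and T alone, medians were 0.986 and 0.745 with 5hmC and 0.402 and -0.398 with 5mC. None of these 254 passed the test. The count of 67 was 34 without CREB1 5mC replicate 1, 42 without CREB1 5hmC replicate 1, 11 without CREB1 5mC replicate 2 and 29 without CREB1 5hmC replicate 2.

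**Figure D4:**
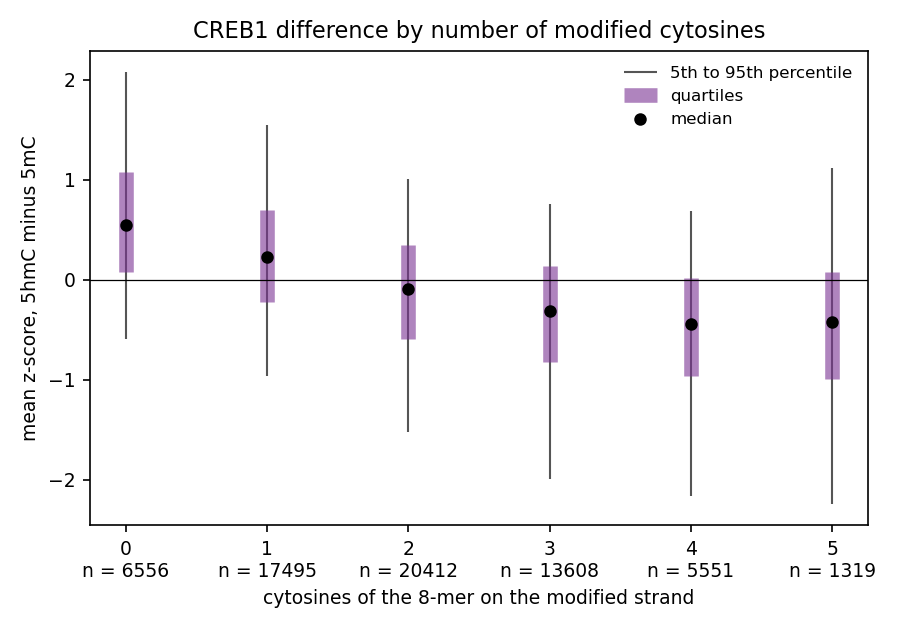
Difference in mean CREB1 z-score, 5hmC minus 5mC (vertical axis), over 8-mers grouped by the number of cytosines on the modified strand (horizontal axis). Points are medians, thick bars quartiles and thin lines the 5th to 95th percentiles. The median is 0.549 with no cytosine and -0.446 with 4.

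Many of the rises shared TGATG, which differs from the start of the CRE at one base, or held TGTAA. Of the 121, TGATG stood in 39 (32.2%) and TGTAA in 22 (18.2%), against 0.392% and 0.393% of tested 8-mers, and neither stood in any of the 499 falls. Both were picked after their values were seen. The 255 8-mers with TGATG averaged 4.50 and 6.84 on the 5hmC arrays and 2.92 and 2.14 on the 5mC arrays, and 39 rose and none fell. Those with TGTAA averaged 3.07 and 2.99 with 5hmC and 1.44 and 0.832 with 5mC, and 22 of 256 rose. With TGATG on the unmodified strand instead, 8-mers averaged 0.171 and 0.219 with 5hmC and 0.430 and 0.464 with 5mC. Of these, 1 of 254 fell (0.394%, against 0.766% of all 8-mers). With TGTAA on the unmodified strand, 3 of 256 rose (1.17%, against 0.186% of all 8-mers) and none fell. Of these 256, 202 differences were positive (median 0.664) and 132 were separated higher, against 22.7% of all 8-mers separated higher. Among the 256 tetranucleotides, the highest mean differences were at TGAT (1.16) and ATGA (1.10), followed by GATG (0.966), TGTA (0.862) and TGAC (0.856). At the low end were CGCA (-3.47) and GCAA (-2.77), followed by ACGC (-1.97), GCGC (-1.25) and CTAC (-1.08).

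The 8-mer tgatgCaa, in which TGAT runs into the C/EBP half-site with no CpG between, had the highest z-score on both 5hmC arrays and was at rank 10 on both 5mC arrays. It was at 113 and 164 with 5hmC and 76.8 and 36.8 with 5mC, a difference of 81.8 ± 16.4 (SE, limma adjusted p = 0.0159), and at 8.81 and 15.4 on C DNA. Both 5hmC arrays were above both 5mC arrays, as the choice of the 10 rises required. Of the 17 probes with tgatgCaa, 1 and 0 were saturated on the 5hmC arrays and 1 and 3 on the 5mC arrays. The part of saturation in this difference was not tested. The call of tgatgCaa was lost without CREB1 5mC replicate 2 (adjusted p = 0.228) or CREB1 5hmC replicate 2 (0.31), and when z-scores were divided by the 99th percentile of their array (0.766). CCatgCaa was at 17.8 and 30.9 with 5hmC and 8.03 and 5.00 with 5mC (difference 17.9 ± 2.62, adjusted p = 0.00121). atgatgat, with no cytosine on the modified strand, was at 15.2 and 22.1 with 5hmC and 4.84 and 4.55 with 5mC (difference 13.9 ± 2.37, adjusted p = 0.00453). The remaining 7 of the 10 largest rises had z-scores from 9.30 to 40.5 with 5hmC and from 2.09 to 20.0 with 5mC. Of 11 named 8-mers that rose, 5 kept the call without CREB1 5mC replicate 1, 11 without CREB1 5hmC replicate 1, 2 without CREB1 5mC replicate 2 and 2 without CREB1 5hmC replicate 2. The count of 121 rises was 66, 74, 19 and 56 without these arrays in the same order. Falls numbered 126 when CREB1 5hmC replicate 1 was left out, and 194 when CREB1 5hmC replicate 2 was, against 499.

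Order among composites varied with the base before GCAA. Among the 4 8-mers with TGA, then any base, then GCAA, tgatgCaa stood first with 5hmC, ahead of tgaCgCaa, whose values are given above. On the first 5mC array tgaCgCaa (103) was above tgatgCaa (76.8), and on the second they were at 42.4 and 36.8. tgaggCaa (3.09 and 5.98 with 5hmC, 4.95 and 5.26 with 5mC) and tgaagCaa (0.116 and -0.565 with 5hmC, 2.34 and 0.356 with 5mC) were under 6 on each of the 4 arrays and did not pass the test. Of the 24 single-base neighbours of tgatgCaa 2 rose. tgatgtaa, in which the only modified cytosine is replaced with T, was at 10.9 and 23.8 with 5hmC and 6.85 and 2.63 with 5mC (difference 12.6 ± 2.92, adjusted p = 0.0416). tgatCCaa was at 2.27 and 3.95 with 5hmC and -0.0273 and -0.435 with 5mC (difference 3.34 ± 0.695, adjusted p = 0.0212). ttatgCaa, which lacks the G of TGA, was the highest neighbour without a CpG, at 24.6 and 59.9 with 5hmC and 37.2 and 23.7 with 5mC, which overlap (adjusted p = 0.561). Of 15 composite 8-mers with GCAA on the modified strand 2 rose and none fell. With GCAA on the other strand none passed the test, and ttgCatCa was at 0.849 and 0.669 with 5hmC and 2.88 and 0.360 with 5mC. ttgCttCa and ttgCCtCa, the other two of the series on that strand that lack a CpG, lay between -0.715 and 0.220 on each array.

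No 8-mer of the CRE lists differed between 5hmC and 5mC by the test. Its SEs also pool the spread on C DNA, where these lists had their highest z-scores. At tgaCgtCa the standard deviation was 12.3 with 5hmC, 15.3 with 5mC and 40.0 on C DNA. The absence of a call therefore does not show equal binding. The palindrome tgaCgtCa was at 27.5 and 44.9 with 5hmC and 33.7 and 12.0 with 5mC (difference 13.4 ± 15.2, adjusted p = 0.786), against 193 and 136 on C DNA. Its groups overlap, and the standard error leaves differences of either sign. Over the 15 8-mers of the CRE core the array medians were 3.97 and 4.93 with 5hmC and 5.27 and 3.23 with 5mC. With the half-site TGACGT on the modified strand, outside the core, 40 8-mers had medians of 6.49 and 9.76 with 5hmC and 6.76 and 6.03 with 5mC. Written on the other strand, where the modified cytosines lie in ACGTCA, the 40 had medians of 1.30 and 1.58 with 5hmC and 3.53 and 2.59 with 5mC. Here 36 of 40 differences were negative (median -1.53), though none passed the test. Of the 40, 25 were separated lower, against 23.7% of all 8-mers. The 15 8-mers of the PAR bZIP site, whose centre ttaCgtaa was at 14.8 and 17.2 with 5hmC and 16.3 and 6.39 with 5mC, held no call, nor did 16 AP-1 and 48 E-box 8-mers. Of 857 8-mers with TGAC on the modified strand and no CpG 2 fell (0.233%), and of 858 with TGAC on the unmodified strand 1 fell (0.117%). Over all 8-mers 0.766% fell.

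Probe signals gave a second readout on a log scale from the same arrays. Each 8-mer was given the median log2 signal, less background, over its probes, and this was centred on the array median. Of 18 named 8-mers that fell in z-score and are not palindromes, 14 passed the test there, and log2 differences of the 18 ran from -2.47 to -1.07 on the modified strand. On probes that held these 8-mers on the unmodified strand 1 passed, and the median log2 difference was -0.22. The 18 were chosen by z-score, which ranks with modified-strand signal of the same arrays, so this contrast of strands is not an independent test. Of the 11 named 8-mers that rose, 1 passed on the modified strand (atgatgat, log2 difference 1.17, adjusted p = 0.0345), with differences from 0.59 to 1.17. For tgatgCaa the log2 difference was 0.86 ± 0.75 (SE, adjusted p = 0.733), with 15 of its 17 probes higher and 2 lower with 5hmC. Its median probe was at 30.1 and 26.7 times the array median with 5hmC and at 24.7 and 9.85 times with 5mC. For CtaCgCaa the same ratio was 6.35 and 5.14 with 5hmC and 45.2 and 15.6 with 5mC, and 15 of 16 probes were lower (log2 difference -2.22 ± 0.60, adjusted p = 0.153). With 9 of the 16 probes saturated on the second 5mC array, the ratio of 15.6 is a lower bound and the true log2 difference may be further below 0.

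The 2 probes that follow hold tgatgCaa and CtaCgCaa and were of middle rank in mean signal among the probes with each. They are written as the synthesized strand, and here the capitals mark the whole 8-mer.
probe with rise 1: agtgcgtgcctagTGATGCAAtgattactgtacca
probe with fall 1: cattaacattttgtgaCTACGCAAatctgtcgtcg
The first probe read 42739 and 49643 units with 5hmC and 4612 and 43542 units with 5mC, before background was subtracted. As a ratio to the array median after subtraction it was at 78.2 and 55.0 with 5hmC and 4.35 and 10.4 with 5mC. The second read 5700 and 5732 units with 5hmC and 51430 and 65528 units with 5mC, the last at saturation. Its ratios were 8.07 and 5.25 with 5hmC and 58.5 and 15.8 with 5mC. Both probes were separated by group in these ratios. The first probe differed more between 5hmC replicate 1 and 5mC replicate 1 (78.2 and 4.35) than the median probe with tgatgCaa did (30.1 and 24.7), so it does not stand for the size of the difference at that 8-mer.

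ATF1, read on arrays of its own with the same 2 kinds of DNA, had a difference of the same sign at most of these 8-mers. Of the 121 rises of CREB1, 119 had a positive difference for ATF1, against 48.3% of all 8-mers. Of the 499 falls, 493 had a negative one, against 51.7%. ATF1 passed its own test at 87 8-mers that rose (0.134%) and 385 that fell (0.591%), among them 6 of the 121 and 86 of the 499. Across 8-mers the differences of CREB1 and ATF1 correlated with Pearson r = 0.650, a description, since the proteins share array design and base composition. At CtaCgCaa ATF1 was at 8.42 and 4.87 with 5hmC and 31.9 and 33.8 with 5mC (adjusted p = 0.455). At tgatgCaa it was at 42.9 and 40.5 with 5hmC and 18.3 and 24.5 with 5mC (adjusted p = 0.581). For the CGCAA class on the modified strand the median difference of ATF1 was -4.44, against -7.91 for CREB1, and 39 of 240 fell. Tested directly, the difference between the effects of CREB1 and ATF1 passed at 0 of 65121 8-mers (0.0%) by limma, with 2227 at an unadjusted p under 0.05. Without CREB1 5mC replicate 2 it passed at 117, all more negative for CREB1, of which 97 held CGCA. Without CREB1 5hmC replicate 1 it passed at 4, all more positive for CREB1.

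**Figure D5:**
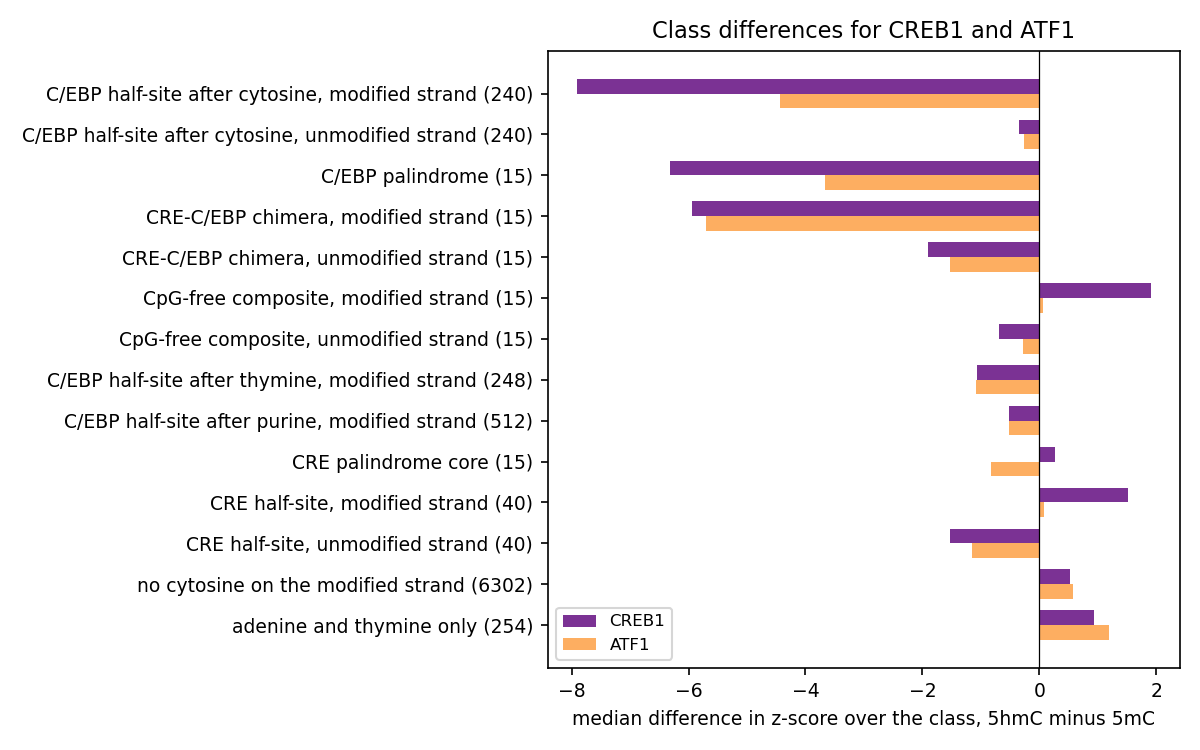
Median difference in z-score, 5hmC minus 5mC (horizontal axis), over each class of 8-mers for CREB1 and ATF1, with the number of 8-mers in brackets. At C/EBP half-sites after cytosine on the modified strand the median difference was -7.91 for CREB1 and -4.44 for ATF1.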

How the data were processed

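Protein binding microarrays on 5hmC and 5mC DNA were analysed, 2 per group. The authors deposited a z-score per array for 65530 8-mers, and no source used here says how that score was computed. They also deposited, per the file headers, a median signal and median background intensity for 40330 probes of 35 variable bases. Across 8-mers the z-score ranked with probe signal when the 8-mer was read on the strand made by extension (rho between 0.957 and 0.975 per array), so it is read there. An 8-mer lay on a median of 17 probes, and the small number of arrays limits precision. The 409 8-mers without a probe were left out, and 6 null cells stayed missing.

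Limma 3.58.1 in R 4.3.3 was fitted to z-scores of the 18 arrays, each group with its own mean, with a mean-variance trend. Tests were two-sided, with Benjamini-Hochberg adjustment over 65121 8-mers at 0.05. An exact permutation test of 2 against 2 arrays cannot go below p = 0.333 and was not used. The fit was also run on simulated z-scores with independent normal noise and, for each 8-mer, the same spread in all groups. In the data spread differed between groups and 8-mers share probes, so that run cannot check the calls on these points. Log2 signals had a floor of 1 unit and centring on the array median. Python 3.11.15, numpy 2.4.6, pandas 2.3.3 and matplotlib 3.10.9 did the rest.

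Named 8-mers were up to 10 of the largest called rises and falls on at least 5 probes, with no overlap between the groups of arrays. Added to these were the central 8-mer of each motif list and the 5 highest on each kind of DNA. The others were TGA-any base-GCAA in both orientations and called neighbours of the top rise and fall. The comparison, lists and members were chosen with earlier results of these data known. Alternatives were other scalings, readouts, filters and sets of arrays, and leaving out each array.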

Additional observations from a re-analysis of the deposited data

Results flagged for a closer look

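JUND, another bZIP protein, had a difference of the same sign as CREB1 at most called 8-mers. It was positive at 108 of the 121 rises and negative at 423 of the 499 falls, against 47.8% and 52.2% of all 8-mers. For 2 classes of 8-mers, however, all CREB1 arrays moved one way between 5hmC and 5mC and all JUND arrays the other way. These class differences were not tested. With CGCAA on the unmodified strand, the class median per array for JUND was 0.399 and 0.372 with 5hmC and -0.117 and -0.0589 with 5mC, a difference of 0.473, where CREB1 had 0.391 and 0.492 with 5hmC and 0.615 and 0.699 with 5mC. For 8-mers with cytosines on the modified strand alone it was 0.0566 and -0.307 with 5hmC and 0.0661 and 0.194 with 5mC for JUND, a difference of -0.256, where CREB1 had -0.066 and -0.129 with 5hmC and -0.183 and -0.187 with 5mC.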

How the results depend on the processing

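Every one of the 620 calls kept its sign under each of the 14 alternatives that tested it, but the number that passed changed. A sign could turn only with quantile normalization, division by the 99th percentile or log2 probe signal, with or without normexp. Elsewhere the sign was fixed in advance. Those fits kept the estimate of the main fit, or left out 1 array where the groups did not overlap. With the arrays of a group left out in turn, calls ran from 200 to 513, rises from 19 to 74, falls from 126 to 494, falls with CGCAA from 78 to 208, palindrome falls from 5 to 11, rises without a cytosine from 11 to 42, and the CREB1 and ATF1 difference of effects from 0 to 117. A fit of the 6 CREB1 arrays alone gave 289 calls, 62 rises, 227 falls, 81 falls with CGCAA, 3 palindrome falls and 14 rises without a cytosine. In a fit of the 4 arrays alone these were 133, 31, 102, 15, 0 and 3, and 9887 8-mers had an unadjusted limma p under 0.05. With the 6 CREB1 arrays 2 of the 19 named falls and 2 of the 11 named rises kept the call. With the 4 arrays alone 0 of the 19 and 1 of the 11 (tgatgCaa) did, so most named calls rested on the arrays of other proteins. Quantile normalization gave 396 calls, 301 falls and 1 difference of effects. Division by the 99th percentile gave 221 calls, 50 rises, 171 falls and 27 rises without a cytosine. Log2 probe signal gave 278 calls, 11 rises, 267 falls, 113 falls with CGCAA and 4 rises without a cytosine, and normexp 217 rises. Without a trend there were 196 rises and 104 without a cytosine, and with CREB1 and ATF1 arrays 238 and 119. The replicate block gave 546 calls, of which 534 were among the 620, and the call of CgaCgCaa was lost (adjusted p = 0.059). Over 8-mers, same-numbered 5hmC and 5mC arrays deviated from their group means with a correlation of -0.166. For 5hmC and C arrays it was 0.203, and for 5mC and C arrays -0.104. With 2 arrays a group these values cannot settle whether the numbers pair the arrays. Signs turned at 8-mers that had not passed. For tgaCgCaa the difference was 12.2 with quantile normalization and 0.38 in units of the 99th percentile, and with 1 array left out it ran from -40.0 to 21.0. Over the same left-out arrays it ran from -0.272 to 9.61 for ttaCgtaa, -2.12 to 0.399 for ttgCatCa, -41.0 to 13.4 for taCgCaat, -61.3 to 14.6 for aCgCaata and -2.01 to 0.876 for tgaggCaa. The median of the composite list was negative in log2 signal (-0.05) and without CREB1 5hmC replicate 2 (-0.206), and that of the CRE half-site on the modified strand in log2 signal (-0.03). The median of the CRE core turned sign in 3 alternatives, the PAR bZIP site in 4 and the E-box in 2. Without CREB1 5mC replicate 1 it turned positive for GCAA on the modified strand after T (0.549) or a purine (0.249) and for AP-1 (0.155). Medians of the CGCAA, C/EBP palindrome and chimera lists did not turn. The causes were not tested. Precision is limited by having 2 arrays a group, and saturation on the second 5mC array bounds the brightest sites.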

Other observations

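Of the 620 called 8-mers, 8 lay on fewer than 5 probes, and all 8 held CCCC. aCaCCCCg, on 2 probes, was at 19.5 and 52.2 with 5hmC and 2.62 and -1.79 with 5mC, and gaCaCCCC, on 1 probe, had the same z-scores. atgCCCCt, on 1 probe, was at -1.98 and -2.87 with 5hmC and 4.51 and 6.36 with 5mC. These 8-mers were chosen after their values were seen. All 9 8-mers with 7 cytosines on the modified strand had positive differences (median 5.70), none of which passed the test, and their medians were 5.50 for ATF1 and 31.8 for JUND.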
